A study of Mus musculus with 4 samples.

Results

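The 8 genes described here encode neuropeptides and granins that were read in early cranial neurons of the mouse embryo: galanin (Gal), secretin (Sct), peptide YY (Pyy), C-type natriuretic peptide (Nppc), pituitary adenylate cyclase-activating polypeptide (Adcyap1), secretogranin II (Scg2), chromogranin A (Chga) and chromogranin B (Chgb). They were taken by symbol from the 32285 genes of the count matrices, and each symbol named 1 row in all 4 libraries. They had been chosen by their UMI levels in these neuron classes, and differences between genotypes had also been seen. Their levels across cell classes are therefore described without a test, and counts of members that passed a test are not read as evidence about the set.

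Single-cell RNA was measured in E10.5 Swiss-Webster embryos of 34 to 36 somites, in a study that asks how Tbx2 and Tbx3, a pair of T-box transcription factors, act on cell fate in the otic vesicle. The 2 conditional knockout (cKO) libraries came from embryos carrying Pax2-Cre, both floxed alleles of Tbx2, both floxed alleles of Tbx3 and 1 Rosa26-GFP reporter allele. The 2 control libraries came from embryos carrying Pax2-Cre and the reporter with no floxed Tbx allele, so that Cre and GFP were shared by both genotypes. Otic vesicles, cochleovestibular ganglia and the neural tube and pharyngeal tissue beside them were dissected, and GFP-positive, DAPI-negative cells were sorted. Pax2-Cre defines which cells recombine and glow: placodal cells and part of the neural tube. The protocols name 2 cKO and 3 control embryos and say that vesicles were pooled, but not how embryos were divided among libraries, so p-values measure the spread between libraries, which may be technical.

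Neuropeptides are made as larger precursors, packed with granins into dense-core vesicles, and cut there by prohormone convertases before release. Most act on G protein-coupled receptors, whereas C-type natriuretic peptide acts on the guanylyl cyclase receptor Npr2. Granins are acidic proteins of the vesicle core, they help to load it, and they are themselves cut into peptides. Cochleovestibular neurons, which serve hearing and balance, leave the otic vesicle as neuroblasts, and epibranchial neurons of the geniculate, petrosal and nodose ganglia arise from neighbouring placodes.

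Of the members, 5 have a cAMP response element core, TGACG, in the promoter window held by RefSeq for GRCm38.p6 (250 bases before and 50 after the start of transcription). The element binds CREB-family factors and is a textbook feature of granin genes. All 8 members matched the RefSeq table. The 3 granin promoters and that of Gal are printed because Chga, Chgb and Scg2 fell and Gal rose in cochleovestibular neurons. Adcyap1 also fell there, and Sct, whose window lacks TGACG, also rose, but their promoters are not printed. A link between TGACG and these changes was not tested. The sequences read 5′ to 3′ on the gene's strand, with TGACG, or the full palindrome TGACGTCA that contains it, in capitals.
Scg2, chr1:79439977-79440276, minus strand: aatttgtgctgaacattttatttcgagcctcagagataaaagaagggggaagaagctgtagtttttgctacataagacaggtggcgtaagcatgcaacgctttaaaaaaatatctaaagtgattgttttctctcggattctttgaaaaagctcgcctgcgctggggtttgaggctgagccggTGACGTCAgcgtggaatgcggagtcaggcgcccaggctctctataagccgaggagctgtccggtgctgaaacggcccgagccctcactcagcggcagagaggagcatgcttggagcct
Chgb, chr2:132781392-132781691, plus strand: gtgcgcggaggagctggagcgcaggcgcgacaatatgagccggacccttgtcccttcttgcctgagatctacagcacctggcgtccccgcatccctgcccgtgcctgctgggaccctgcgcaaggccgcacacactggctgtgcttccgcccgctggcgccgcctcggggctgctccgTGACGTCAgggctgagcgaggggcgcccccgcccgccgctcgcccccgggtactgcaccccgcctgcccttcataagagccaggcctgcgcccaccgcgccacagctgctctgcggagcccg
Chga, chr12:102554691-102554990, plus strand: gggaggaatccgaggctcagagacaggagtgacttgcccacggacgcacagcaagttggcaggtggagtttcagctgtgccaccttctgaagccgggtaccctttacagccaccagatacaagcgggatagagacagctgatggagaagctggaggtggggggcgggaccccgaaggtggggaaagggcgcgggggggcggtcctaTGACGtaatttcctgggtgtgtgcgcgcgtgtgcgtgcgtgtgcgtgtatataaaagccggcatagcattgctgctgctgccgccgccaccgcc
Gal, chr19:3414495-3414794, minus strand: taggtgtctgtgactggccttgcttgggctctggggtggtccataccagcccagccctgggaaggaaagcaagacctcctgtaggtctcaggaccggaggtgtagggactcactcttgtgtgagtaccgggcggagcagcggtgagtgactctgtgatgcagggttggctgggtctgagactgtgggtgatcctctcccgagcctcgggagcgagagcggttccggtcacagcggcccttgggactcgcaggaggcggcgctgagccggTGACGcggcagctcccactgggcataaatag

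The palindrome began 68 bases before the start in Scg2 and 72 bases before it in Chgb. Chga held TGACG alone, 44 bases before the start, and Adcyap1 held it 91 bases before the start in one of its promoters and 242 bases before it in the other. In Gal the letters lay after the start, at position 20 of the transcript. The windows of Sct, Pyy and Nppc held neither form. Searched on both strands, TGACGTCA occurred in 588 of 32851 promoters of the table (1.79%) and TGACG, counted also inside the palindrome, in 20.8%. The E-box letters CANNTG, which bind proneural bHLH factors, occurred in 72.3% of all windows. They were found at 4 places in Sct, 3 in Chga, 2 in Chgb and 1 each in Scg2 and Pyy, and at none in Gal, Nppc or Adcyap1. These matches are letters in a window and were not tested as binding sites.

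The cKO libraries held 106769747 and 124986694 UMIs and the control libraries 128205192 and 111724972, and 3220, 3713, 3869 and 3597 cells were kept in the same order. The median mitochondrial share of these cells was 1.31% and 1.38% in cKO and 2.41% and 2.96% in control libraries. Library pairs shared between 2 and 8 barcodes. Clusters were named from marker lists, so cochleovestibular, epibranchial, neural tube and otic mean resemblance to those markers ("cochleovestibular-like" and so on). The 12 cochleovestibular markers were all detected in that class and summed to 2763 and 2691 CPM in cKO and 4162 and 4244 CPM in controls. Epibranchial neurons (7 of 7 markers), neural tube neurons (8 of 8) and progenitors (9 of 9) likewise held their lists in every library. The cochleovestibular markers also summed to 3691 and 3498 CPM in cKO and 3688 and 3668 CPM in control epibranchial neurons. That list alone does not set these classes apart. Epibranchial markers summed to 2523 and 2401 CPM in cKO and 2091 and 1904 CPM in control epibranchial neurons. In the cochleovestibular class they did not exceed 78 CPM. Tbx3 was 34.4 and 26.6 CPM in cKO cochleovestibular neurons, against 107 and 102 CPM in controls (log2 change -1.66, SE 0.13, edgeR adjusted p = 1.31e-04). Tbx2 was 18.8 and 22.1 CPM there in cKO, against 14.1 and 15.6 CPM in controls (0.57, SE 0.14, adjusted p = 0.0131). The sources used here do not name the deleted exons, so 3′ counts of Tbx2 and Tbx3 say little about the deletion itself. In the epibranchial class Tbx3 had 19.1 and 21.2 CPM in cKO, against 25.7 and 12.6 CPM in controls (adjusted p = 0.689).

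Each member had its own place among the classes. CPM here scales the UMIs of a gene to all UMIs of that class in that library, and means are over the 4 libraries. Gal was highest in epibranchial neurons (mean 65.4 CPM) and cochleovestibular neurons (56.9 CPM), whose library ranges overlapped, then in neural tube neurons (22.6 CPM), with 3.36 CPM in otic epithelium. Sct had a steeper order among the neuron classes, with 677 CPM in epibranchial, 135 CPM in cochleovestibular and 17.4 CPM in neural tube neurons, and these ranges did not overlap. It was not confined to neurons: surface ectoderm had 24.6 CPM, in a range that overlapped neural tube neurons, and unnamed clusters had 48.6 CPM. Nppc stood at 73.7 CPM in neural tube progenitors and at 1.21 CPM in neural tube neurons. Pyy was low everywhere, with 2.6 CPM in neural tube neurons and 1.38 CPM in otic epithelium as its highest class means.

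The granins and Adcyap1 followed another order. Chgb was highest in neural tube neurons at 224 CPM, ahead of 47.9 CPM in epibranchial and 21.4 CPM in cochleovestibular neurons, and the ranges of neighbours in that order did not overlap. Scg2 had 45.6 CPM in neural tube neurons, 12.2 CPM in epibranchial and 0.892 CPM in cochleovestibular neurons. The control values of Scg2 in neural tube neurons lay inside its epibranchial range. Adcyap1 had 22.6 CPM in neural tube, 14.3 CPM in epibranchial and 1.48 CPM in cochleovestibular neurons, and the ranges of the first 2 classes overlapped. Chga was highest in epibranchial neurons at 77.8 CPM, with 59.3 CPM in neural tube neurons and 29.3 CPM in cochleovestibular neurons, again without overlap. Chga and Chgb were lower in every library of otic epithelium and neural tube progenitors than in any neuron class.

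**Figure D1:**
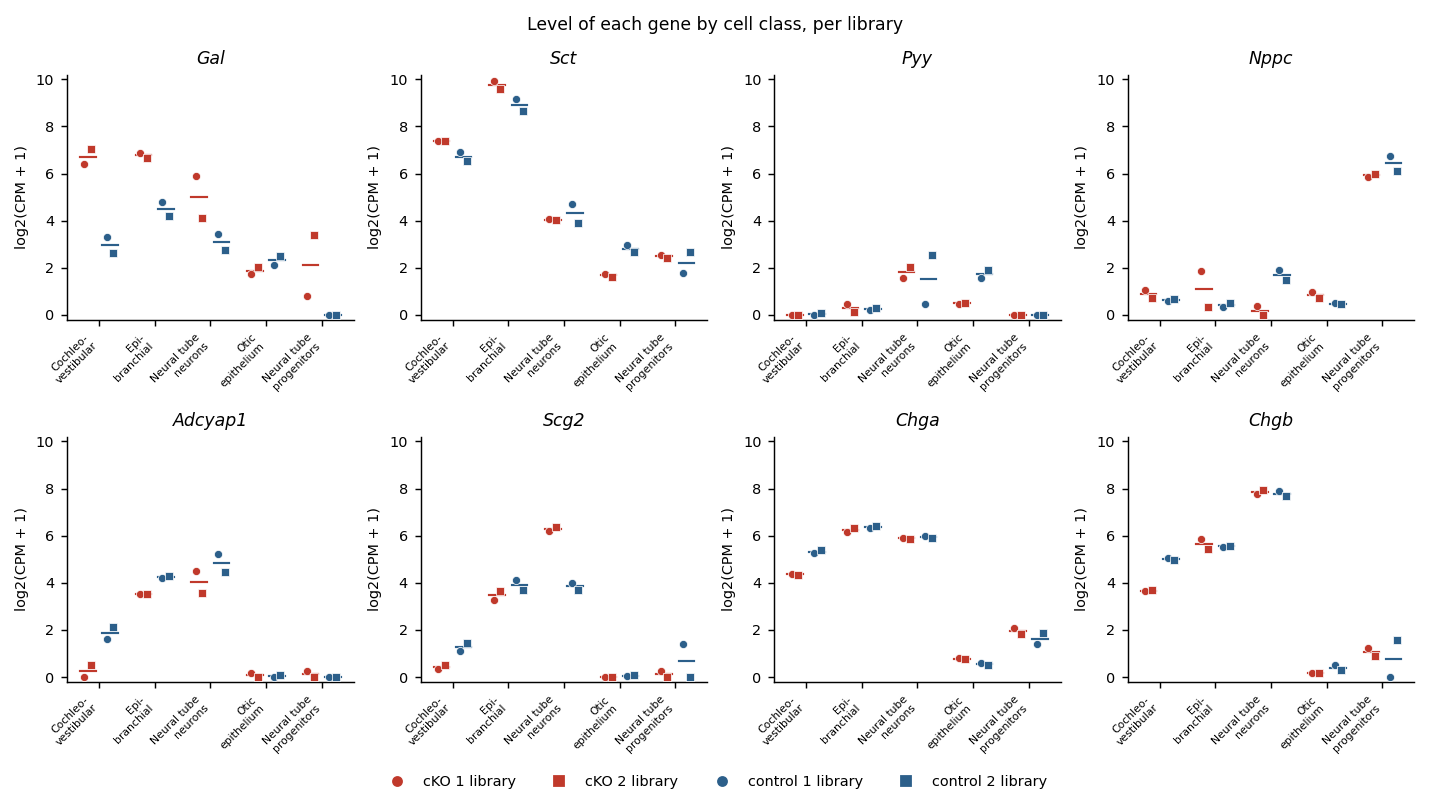
Level of each of the 8 genes, as log2(CPM + 1), in 5 cell classes: each point is 1 library, with cKO libraries left and control libraries right, and bars are group means. Gal in cochleovestibular neurons sits at 83.5 and 130 CPM in cKO and at 9.03 and 5.18 CPM in control libraries, whereas Scg2 parts the genotypes in neural tube neurons.

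Gal (ENSMUSG00000024907, mm10 chr19:3409915-3414544, minus strand) encodes the precursor of galanin, a peptide of sensory and hypothalamic neurons that acts on the receptors Galr1 to Galr3. In cochleovestibular neurons it had 83.5 and 130 CPM (919 and 1583 UMIs) in cKO 1 and cKO 2, against 9.03 and 5.18 CPM (138 and 94 UMIs) in control 1 and control 2. Both cKO libraries stood far above both controls. The means were 107 ± 32.7 CPM in cKO and 7.10 ± 2.72 CPM in control libraries (SD, n = 2 each), a log2 change of 4.03 (SE 0.27, edgeR adjusted p = 8.03e-05). Of the 6 members tested in this class, 6 passed: Gal and Sct rose, and Adcyap1, Scg2, Chga and Chgb fell. Of all 12760 genes tested there, 38.2% passed, 18.8% higher and 19.5% lower in cKO. Nppc and Pyy did not reach the count minimum for a test.

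Different clusters made up the cochleovestibular class in the genotypes. Cluster 15, rich in Neurog1, held 59.9% and 71.6% of the class in cKO but 0.528% and 0% of it in control libraries. Clusters 16 and 20, in which the neuroendocrine factor Insm1 or the neurotrophin receptor Ntrk3 was among the leading genes, held 4.64% and 3.83%, and 0.662% and 2.19%, of the class in cKO. These clusters held 39.1% and 25.9%, and 22.5% and 27.5%, of it in controls. Class values thus sum over an unlike mix of cells. Cluster 5, which leads with Hmx1 and Pou4f1, had enough cells in every library to be compared alone, with 105 and 82 cKO cells and 215 and 313 control cells. There Gal was 120 and 115 CPM in cKO, against 8.88 and 6.04 CPM in controls. The groups lay apart, with a log2 change of 4.02 (SE 0.17, adjusted p = 2.64e-07), and 15.1% of all genes tested passed in this cluster.

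The Gal signal came from a minority of cells. After each cell was thinned to 10000 UMIs, 22.2% (95% exact interval 14.5 to 31.7%) and 22.5% (13.9 to 33.2%) of cluster 5 cells had a Gal UMI in cKO libraries, against 6.22% (3.35 to 10.4%) and 3.61% (1.81 to 6.36%) in control libraries. The shares were higher in both cKO libraries than in both controls. The intervals cover counting error within 1 library only, since cells are not replicates of a genotype. Too shallow to be thinned were 6 and 2 cells in cKO and 6 and 8 in controls. Before thinning the shares were 31.4% and 25.6% in cKO and 9.30% and 5.43% in controls, at median depths of 33368 and 28259 against 25045 and 24723 UMIs. A single cKO 2 cell held 155 of the 293 Gal UMIs of its library in cluster 5. The fullest cell of cKO 1 held 66, and those of control 1 and control 2 held 10 and 18. In cluster 15 the thinned share of cells with Gal was 21.8% and 24.1% in cKO, and in cluster 16 it was 8.22% and 5.95% in controls. In leukocytes, taken as cells that should lack the gene, it was 0 of 53 and 0 of 51 cells in cKO, which allows up to 6.72% and 6.98%, and 0 of 48 and 1 of 40 cells in controls. Median depths of leukocytes were 51386.5 and 37911 UMIs in cKO and 41115 and 40883 UMIs in controls. Cluster 20, the cells richest in Stmn2, had 0 and 0.44 CPM of Gal in controls.

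**Figure D2:**
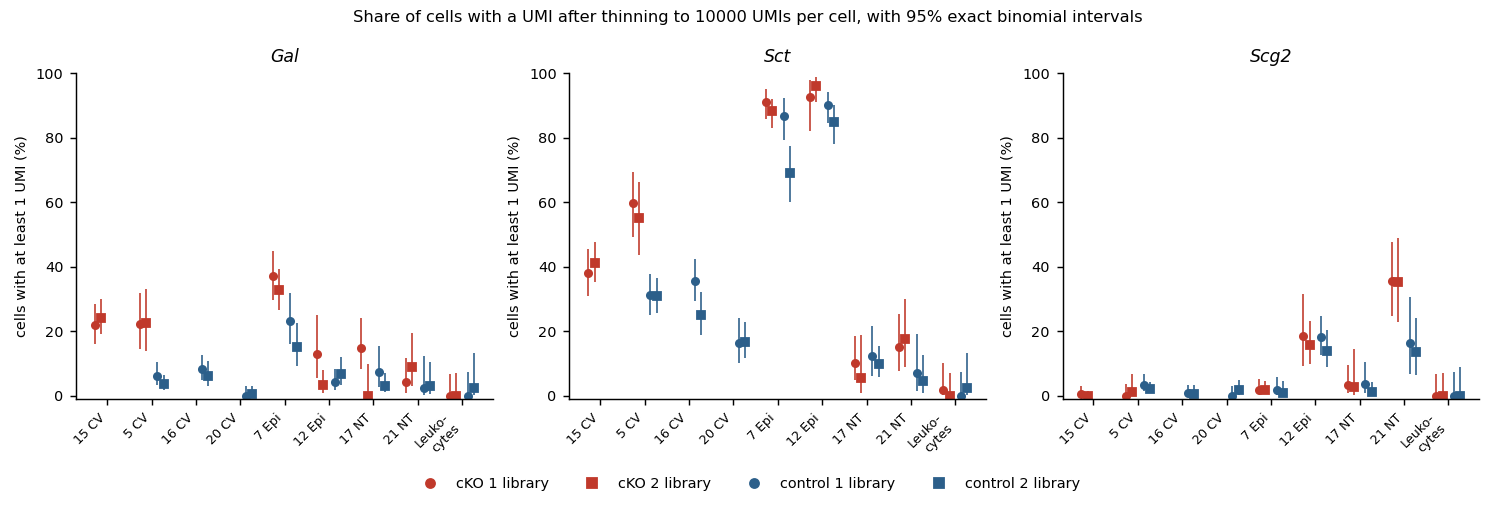
Percentage of cells with at least 1 UMI of Gal, Sct or Scg2 after thinning to 10000 UMIs, by cluster and library, with cKO libraries left of control libraries and bars giving 95% exact binomial intervals, which cover counting error only. Gal reaches 22.2% and 22.5% of cluster 5 cells in cKO libraries, with leukocytes at 2.5% or less.

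Epibranchial neurons carried more Gal in cKO as well. The class had 117 and 100.7 CPM in cKO libraries and 26.8 and 17.6 CPM in control libraries. The groups did not overlap, and the log2 change was 2.38 (SE 0.18, adjusted p = 0.00101). In this class 24.1% of 12826 genes passed, 11.7% higher and 12.4% lower, and of the 6 members tested Gal and Sct rose and Adcyap1 fell. The early cluster 7, with Neurog2 and Neurod4 among its leading genes, held 76.4% and 63.7% of the class in cKO and 41.2% and 44.3% in controls. Within cluster 7 Gal was 158 and 169 CPM in cKO, against 69.5 and 33.9 CPM in controls. It rose there by 1.74 on the log2 scale (SE 0.23, adjusted p = 0.00327), where 7.87% of all genes passed. Within cluster 12, with the later genes Prph, Ret and Dbh, Gal was 13.2 and 7.47 CPM in cKO and 7.22 and 8.83 CPM in controls, and the groups overlapped (0.37, adjusted p = 0.418).

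The Gal change differed in size between the neuron classes. The interaction term, cochleovestibular minus epibranchial, was 1.58 on the log2 scale (SE 0.30, adjusted p = 0.0233), in a test that 5.41% of 13518 genes passed. Across alternatives its adjusted p ran between 1.28e-04 and 0.0755. It was 0.0517 without control 1, 0.0755 without control 2 and 0.0525 with the replicate number as a block.

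Gal was uneven in neural tube neurons. It had 58.6 and 16.2 CPM in cKO and 9.95 and 5.77 CPM in controls. Both cKO values lay above both controls, but the change of 2.45 (SE 0.54) had an adjusted p of 0.0708, which ran between 4.33e-24 and 0.213 over the alternatives and passed in 7 of them. Without cKO 1 the change was 1.12 with an adjusted p of 0.213. The class holds cluster 17, a mix with Lbx1, Evx1 and Lhx9 neurons, and cluster 21, En1 and Otp interneuron-like cells. Cluster 17 held 52.2% and 37.7% of the class in cKO, against 62.5% and 70.7% in controls. Cluster 21 held 47.8% and 62.3% in cKO, against 37.5% and 29.3% in controls, so values of this class sum over an unlike mix. In cluster 17 Gal was 84.7 and 1.32 CPM in cKO and 14.8 and 6.62 CPM in controls. In cluster 21 Gal was 24.8 and 25.8 CPM in cKO and 1.12 and 3.75 CPM in controls, which passed (2.94, SE 0.43, adjusted p = 3.55e-04). It rested on few cells: 5 of 86 and 6 of 66 cKO cells held a Gal UMI, and 32 of 38 and 22 of 30 UMIs came from 1 cell each.

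Sct (ENSMUSG00000038580, mm10 chr7:141278330-141279133, minus strand) encodes secretin, best known as a duodenal hormone and also made by developing neurons. In epibranchial neurons it had 964 and 773 CPM in cKO, against 574 and 397 CPM in controls. The cKO libraries were higher without overlap, by 0.95 on the log2 scale (SE 0.18, adjusted p = 0.00973). Without control 2 the change was 0.71 with an adjusted p of 0.0529, the highest among alternatives that reached down to 6.14e-24. Within cluster 7 Sct was 1082 and 875 CPM in cKO and 688 and 310 CPM in controls, a rise of 1.06 (SE 0.28, adjusted p = 0.0469). Within cluster 12 it was 668 and 635 CPM in cKO and 522 and 444 CPM in controls, a rise of 0.54 (SE 0.095, adjusted p = 0.00526), in a cluster where 12.9% of all genes passed. Most epibranchial cells held it: after thinning, 91.2% and 88.2% of cluster 7 cells in cKO and 86.8% and 69.2% in controls, against at most 2.5% of leukocytes.

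Sct also rose in cochleovestibular neurons, at 165 and 163 CPM in cKO against 120 and 90.6 CPM in controls. The cKO libraries sat close together above both controls (log2 change 0.75, SE 0.13, adjusted p = 0.00311). Within cluster 5 it also rose, with 270 and 349 CPM in cKO and 96.4 and 121 CPM in controls (1.54, SE 0.14, adjusted p = 5.79e-05). There 59.6% and 55.0% of thinned cells had a Sct UMI in cKO, against 31.1% and 30.8% in controls. Cluster 15 of the cKO had 114 and 117 CPM, and cluster 16 of the controls had 179 and 70.4 CPM. Summed epibranchial markers in the cochleovestibular class were 25 and 8 CPM in cKO and 22 and 78 CPM in controls, and their part in the Sct values was not tested. The interaction between the neuron classes was -0.22 (SE 0.11, adjusted p = 0.361). In otic epithelium, with the opposite sign, Sct was 2.36 and 2.04 CPM in cKO and 6.81 and 5.29 CPM in controls (-1.31, SE 0.18, adjusted p = 0.0011). The otic class was made of different clusters in each genotype: clusters 1 and 2 held 49.1% and 47.7%, and 46.2% and 46.2%, of it in cKO, and 3 or fewer cells each in any control library. No otic cluster could be compared alone, so for Sct, Nppc and Pyy the genotype and the cluster makeup of this class cannot be told apart. Its neural tube neuron values overlapped, at 15.6 and 15.1 CPM in cKO and 25.1 and 13.98 CPM in controls (-0.22, adjusted p = 0.724).

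Gal and Sct were also read in the same cells. Among thinned cluster 5 cells with a Sct UMI, 30.5% and 29.5% also held Gal in cKO, against 4.62% and 0% in controls, where 0 of 94 cells allows up to 3.85%. Among cells without a Sct UMI, Gal was found in 10% and 13.9% in cKO and in 6.94% and 5.21% in controls. Cluster 5 cells with Sct thus held Gal more often than those without in both cKO libraries and less often in both controls. In cluster 7 they held it more often in each library except cKO 1. Gal was found there in 36.8% and 34.5% of cells with Sct in cKO, against 40% and 19.2% of those without. In controls it was 25.7% and 19.3%, against 6.25% and 5.41%. Of 170 thinned cluster 7 cells in cKO 1, 155 held Sct, so cells without it were few. These shares are a description of the cells of 4 libraries.

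**Figure D3:**
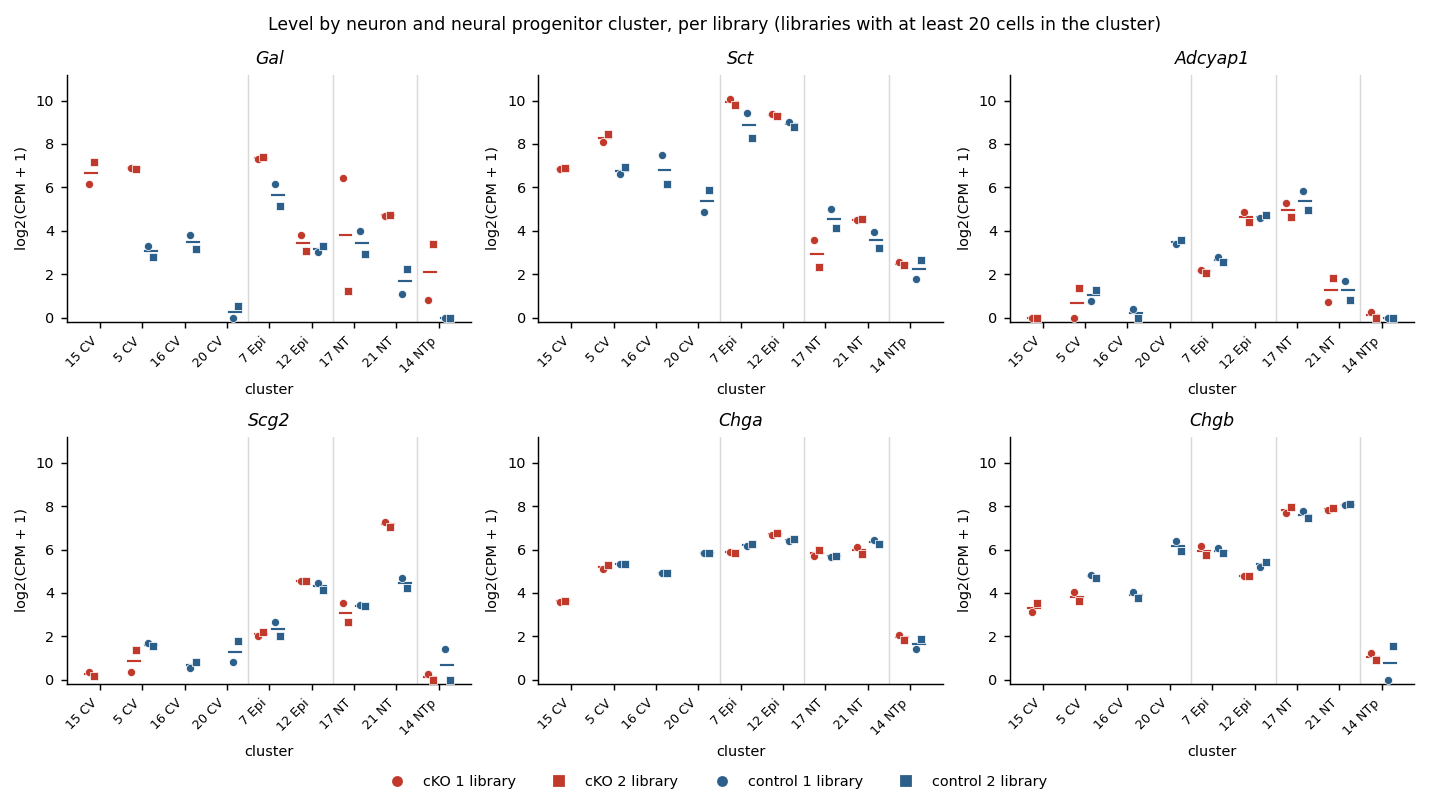
Levels as log2(CPM + 1) of Gal, Sct, Adcyap1, Scg2, Chga and Chgb in single neural clusters, for libraries with at least 20 cells in the cluster, cKO libraries left of control libraries. Gal and Sct part the genotypes in cluster 5, Scg2 does so in cluster 21 at 154 and 131 CPM in cKO against 24.7 and 18.0 CPM in controls, and cluster 15 has cKO points only.

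Adcyap1 (ENSMUSG00000024256, mm10 chr17:93199017-93206537, plus strand) encodes PACAP, a peptide of neuron survival and stress responses that signals through Adcyap1r1. In cochleovestibular neurons it had 0 and 5 UMIs in cKO, against 32 and 62 UMIs in controls, or 0 and 0.410 CPM against 2.09 and 3.42 CPM. It fell by 3.23 on the log2 scale of the fit (SE 0.65, adjusted p = 0.00657), a fitted size that depends on the prior count because cKO 1 was at 0. Of the control UMIs, 26 and 50 lay in cluster 20 (9.62 and 10.98 CPM there), of which the cKO libraries had 2 and 8 cells. In epibranchial neurons Adcyap1 had 81 and 116 of 7713901 and 11036299 UMIs in cKO, against 205 and 174 of 11732754 and 9387889 UMIs in controls. Relative to depth both cKO libraries were lower, a fall of 0.66 (SE 0.14, adjusted p = 0.0156). That call was lost with DESeq2 (adjusted p = 0.0780), without control 1 (0.0951) and without control 2 (0.117), within a range of 0.00137 to 0.881. Within the late cluster 12 the groups overlapped at 27.7 and 20.5 CPM in cKO and 22.8 and 25.8 CPM in controls (0.049, adjusted p = 0.881), and within cluster 7 the adjusted p was 0.303. Among neural tube neurons, at 21.9 and 10.9 CPM in cKO and 36.6 and 21.1 CPM in controls, it missed the threshold (-0.60, adjusted p = 0.373). Without control 2 the change in that class was -1.01. Of its UMIs there, 76 of 77 and 18 of 21 in cKO and 90 of 92 and 94 of 95 in controls lay in cluster 17. This cluster made up less of the class in both cKO libraries. Within it the groups overlapped, at 38.3 and 23.8 CPM in cKO and 55.5 and 29.6 CPM in controls (-0.23, adjusted p = 0.778).

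Nppc (ENSMUSG00000026241, mm10 chr1:86666291-86670571, minus strand) encodes C-type natriuretic peptide, which in mouse guides the branching of sensory axons that carry Npr2 as they enter the hindbrain and spinal cord. It belonged to the neural tube progenitors, at 57.1 and 62.7 CPM in cKO and 107 and 68.0 CPM in controls. Both cKO values were below both controls, but the change of -0.50 (SE 0.20) had an adjusted p of 0.284, in a class where 0.933% of 8578 genes passed, 0.42% higher and 0.513% lower in cKO. Over the alternatives its adjusted p ran between 0.0604 and 0.942. A Nppc UMI was found in 17.9% and 30.9% of thinned progenitor cells in cKO and in 37.5% and 32.8% in controls. Its receptor gene Npr2 lay on the neuron side: cochleovestibular neurons had 18.1 and 14.2 CPM in cKO, against 51.6 and 59.1 CPM in controls, a fall of 1.66 (SE 0.14, adjusted p = 2.04e-04). Epibranchial Npr2 was 47.6 and 41.4 CPM in cKO and 58.1 and 63.6 CPM in controls (-0.34, adjusted p = 0.0555). In otic epithelium Nppc was near the count minimum, at 0.963 and 0.666 CPM in cKO and 0.422 and 0.361 CPM in controls (1.16, SE 0.31, adjusted p = 0.0192). That call was lost with DESeq2 (adjusted p = 0.0672), without control 2 (0.0951) and without cKO 1 (0.0974), within a range of 0.00144 to 0.0974, and the cKO and control cells lay in different otic clusters.

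Pyy (ENSMUSG00000017311, mm10 chr11:102106676-102107832, minus strand), a gut hormone gene of the neuropeptide Y family, was scarcely read in neurons. Its only tested class was otic epithelium, with 0.390 and 0.416 CPM in cKO and 1.96 and 2.75 CPM in controls. Both cKO libraries were lower (-2.32, SE 0.25, adjusted p = 4.54e-04), where 40.2% of 15424 genes passed, 20.8% higher and 19.4% lower. Of the 144 and 160 control UMIs, 112 and 106 lay in cluster 13 (14.5 and 14.1 CPM) and 16 and 38 in cluster 9 (2.12 and 6.03 CPM). In cluster 13 the 10% of cells with most Pyy UMIs held 95.5% and 98.1% of them. In cKO libraries cluster 27 had 6.02 and 8.91 CPM.

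Scg2 (ENSMUSG00000050711, mm10 chr1:79434669-79440120, minus strand) encodes secretogranin II, the precursor of secretoneurin. In neural tube neurons it had 73.3 and 81.8 CPM (258 and 157 UMIs) in cKO, against 15.1 and 11.99 CPM in controls. The genotypes lay well apart, and Scg2 rose by 2.56 on the log2 scale (SE 0.17, adjusted p = 6.41e-04). It was the only one of the 6 members tested there to pass, in a class where 1.09% of 10503 genes passed, 0.438% higher and 0.647% lower. The difference lay in cluster 21, with 154 and 131 CPM in cKO and 24.7 and 18.0 CPM in controls (2.80, SE 0.20, adjusted p = 2.83e-08, against 5.34% of all genes). In cluster 17 the change was -0.062 (adjusted p = 0.973), where 0.437% of all genes passed. Scg2 was read in 35.6% (24.7 to 47.7%) and 35.1% (22.9 to 48.9%) of thinned cluster 21 cells in cKO, against 16.3% (6.81 to 30.7%) and 13.4% (6.33 to 24.0%) in controls, and in none of the thinned leukocytes (0 of 53 and 0 of 51 in cKO, 0 of 48 and 0 of 40 in controls, the last allowing up to 8.81%). The identity genes of cluster 21 were high in both genotypes: En1 had 864 and 736 CPM in cKO and 976 and 975 CPM in controls, and Otp had 443 and 541 CPM in cKO and 587 and 589 CPM in controls.

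In cochleovestibular neurons it had 3 and 5 UMIs in cKO, against 18 and 31 UMIs in controls (-1.78, SE 0.44, adjusted p = 0.0157). That call was lost with DESeq2 (adjusted p = 0.120), without control 2 (0.0951), without cKO 1 (0.127) and without cKO 2 (0.0893), within a range of 0.00235 to 0.127. In epibranchial neurons Scg2 was 8.69 and 11.7 CPM in cKO and 16.2 and 12.04 CPM in controls (-0.35, adjusted p = 0.236). Cluster 12 held most of its epibranchial UMIs, 50 of 67 and 106 of 129 in cKO. There Scg2 was 22.7 and 22.6 CPM in cKO and 21.2 and 16.8 CPM in controls (0.35, adjusted p = 0.184), so the class and the cluster differed in sign, and the share of cluster 12 in the class was lower in both cKO libraries.

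Chga (ENSMUSG00000021194, mm10 chr12:102554969-102565028, plus strand) and Chgb (ENSMUSG00000027350, mm10 chr2:132781278-132795079, plus strand) encode the chromogranins, the classical core proteins of neuroendocrine granules. In cochleovestibular neurons Chga was 19.8 and 19.1 CPM in cKO, against 37.7 and 40.7 CPM in controls, a fall of 0.89 (SE 0.11, adjusted p = 8.84e-04). Chgb was 11.6 and 11.8 CPM in cKO, against 31.9 and 30.2 CPM in controls, a fall of 1.28 (SE 0.12, adjusted p = 2.58e-04). The groups did not overlap for either gene. Within cluster 5 alone Chga was 33.9 and 37.8 CPM in cKO and 39.4 and 39.9 CPM in controls (-0.10, adjusted p = 0.668). Chgb was still lower in cluster 5, at 15.5 and 11.4 CPM in cKO and 27.5 and 24.9 CPM in controls (-0.87, SE 0.20, adjusted p = 0.0138). Cluster 15 of the cKO had 11.1 and 11.6 CPM of Chga, whereas cluster 20 of the controls had 55.9 and 55.5 CPM.

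The chromogranins did not pass the test in the other neuron classes. In epibranchial neurons Chga was 70.4 and 78.8 CPM in cKO and 78.8 and 83.1 CPM in controls (-0.0061, SE 0.089, adjusted p = 0.966). Chgb was 57.3 and 42.1 CPM in cKO and 45.3 and 47.0 CPM in controls (0.21, SE 0.15, adjusted p = 0.336), and passed without cKO 2 (0.45, adjusted p = 0.00451, the lowest of a range up to 0.865). A miss of the threshold does not show equality, but the difference between the classes was itself tested. The interaction was -0.91 for Chga (SE 0.12, adjusted p = 0.00504; 0.0832 without cKO 2, in a range from 9.07e-05) and -1.50 for Chgb (SE 0.17, adjusted p = 0.00317). Within cluster 12 Chga passed upward, at 100 and 108 CPM in cKO and 82.6 and 87.7 CPM in controls (0.41, SE 0.097, adjusted p = 0.0188). Neural tube neurons had Chga at 58.6 and 57.8 CPM in cKO and 62.5 and 58.2 CPM in controls (0.0065, adjusted p = 0.987) and Chgb at 214 and 245 CPM in cKO and 237 and 202 CPM in controls (0.12, adjusted p = 0.611).

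**Figure D4:**
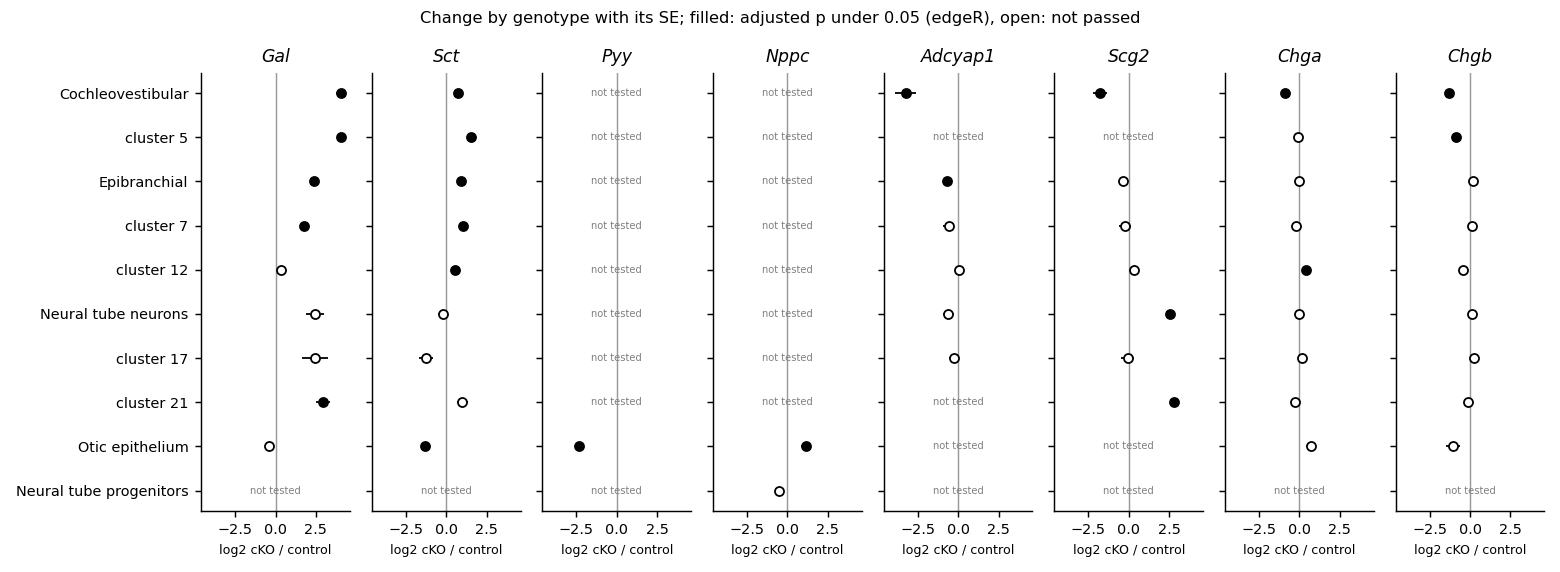
Log2 change of each gene, cKO over control, with its SE, in 5 classes and in the clusters that could be compared alone; filled points had an adjusted p under 0.05 over all genes tested. Gal and Sct lie to the higher side in both ganglion neuron classes, Chga and Chgb lie below 0 in cochleovestibular neurons, and Scg2 lies at 2.56 in neural tube neurons.

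Members were also read in tiers of general neuron genes. Cells of each class were cut into 3 tiers of equal size by the summed CPM of 12 pan-neuronal genes such as Tubb3, Stmn2 and Dcx, with cut points of 1152 and 5045 CPM in the cochleovestibular class. The tiers narrowed but did not remove the difference in these genes: the median summed level in the middle tier was 1879 and 1866 CPM in cKO and 2477 and 2839 CPM in controls. The lowest tier held 60.6% and 61.7% of that class in cKO and 22.7% and 14.6% in controls, and the highest tier held 7.95% and 6.56% in cKO and 42.1% and 51.9% in controls. Gal in the lowest tier was 100 and 164 CPM in cKO and 23.2 and 9.50 CPM in controls. In the middle tier Gal was 46.8 and 82.6 CPM in cKO and 6.61 and 9.53 CPM in controls. Both tiers kept the cKO libraries above the controls, whereas the highest tier, with 24 cells in each cKO library, had 93.3 and 1.40 CPM in cKO and 1.80 and 0.877 CPM in controls.

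In the cochleovestibular class both chromogranins were higher in higher tiers in each of the 4 libraries. Chga in the lowest tier was 7.20 and 6.58 CPM in cKO and 12.5 and 12.7 CPM in controls. In the middle tier it was 38.4 and 40.5 CPM in cKO and 41.4 and 41.4 CPM in controls, and in the highest 54.9 and 43.3 CPM in cKO and 51.1 and 49.0 CPM in controls. The middle values lay close together and the highest overlapped. Chgb in the middle tier was 18.3 and 18.2 CPM in cKO and 21.2 and 23.4 CPM in controls, and in the highest 26.1 and 23.7 CPM in cKO and 59.4 and 40.6 CPM in controls. Sct in the middle tier was 225 and 224 CPM in cKO and 136 and 127 CPM in controls, whereas its lowest tier overlapped. Its highest tier overlapped too, at 139 and 36.3 CPM in cKO and 40.3 and 70.4 CPM in controls. In the epibranchial class Gal was lower in higher tiers. It was 164 and 214 CPM in cKO and 125 and 56.6 CPM in controls in the lowest, and 14.9 and 8.33 CPM in cKO and 6.90 and 5.05 CPM in controls in the highest. In its middle tier Gal was 119 and 98.0 CPM in cKO and 16.6 and 13.9 CPM in controls. Epibranchial Chgb did not follow the cochleovestibular order: its highest tier was its lowest value in every library, at 27.0 and 25.0 CPM in cKO and 35.8 and 35.8 CPM in controls.

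**Figure D5:**
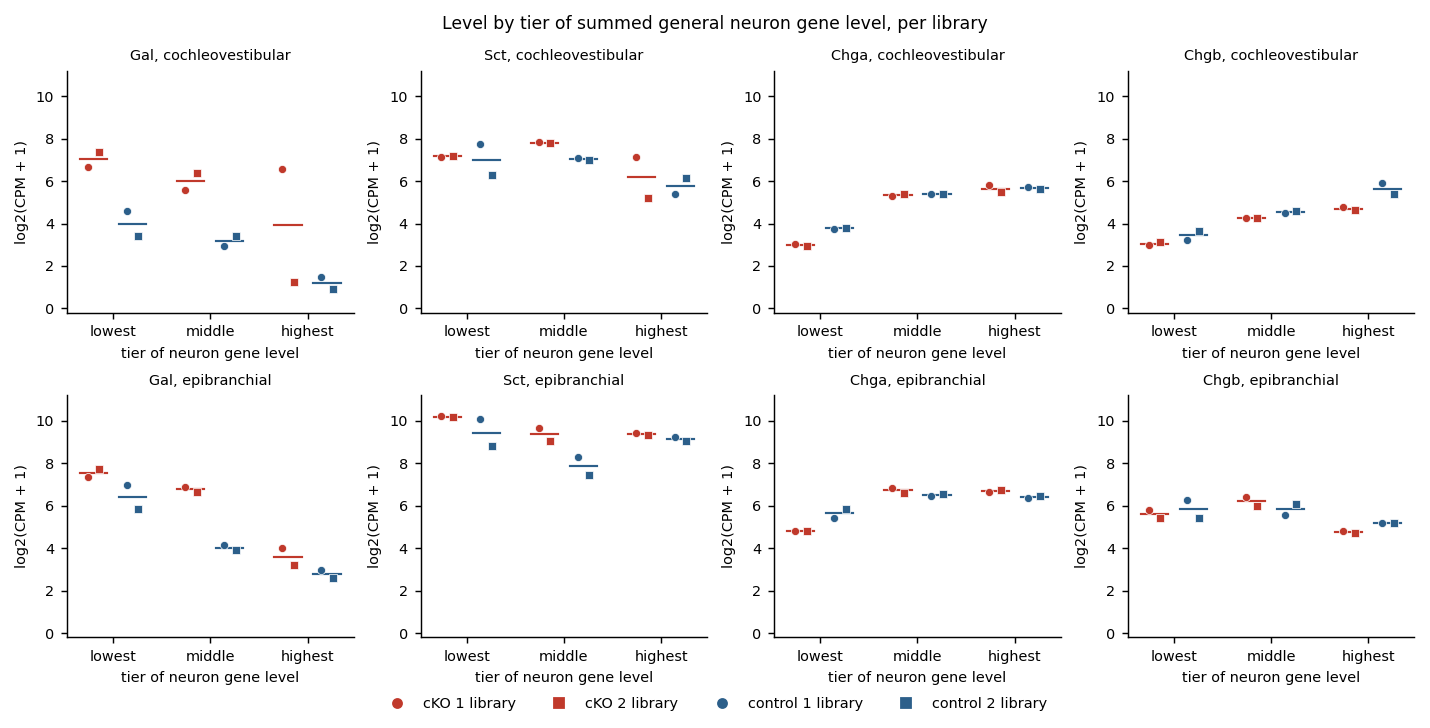
CPM of Gal, Sct, Chga and Chgb in the lowest, middle and highest tier of summed general neuron genes, for cochleovestibular and epibranchial neurons; points are libraries, cKO left of control. Chga in the middle cochleovestibular tier is 38.4 and 40.5 CPM in cKO and 41.4 CPM in both controls, whereas Gal there is 46.8 and 82.6 CPM in cKO and under 10 CPM in controls.

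Genes of the peptide-making apparatus were counted from lists. In cochleovestibular neurons none of 7 tested processing genes rose and 5 fell (median log2 change -0.69), none of 10 tested dense-core granule genes rose and 9 fell (median -1.89), and 12 of 12 general neuron genes fell (median -2.05), beside a median of -0.021 over all genes tested, of which 18.8% rose and 19.5% fell. Within cluster 5 alone, where 15.1% of all genes passed, 1 of 7 processing genes fell (median -0.27), 6 of 8 granule genes fell (median -1.06) and 10 of 12 general neuron genes fell (median -1.24). Pcsk2, a prohormone convertase, was 1.09 and 1.72 CPM in cKO and 23.6 and 25.6 CPM in controls (-3.94, SE 0.21, adjusted p = 3.99e-05). Scg5, its chaperone 7B2, was 31.1 and 31.2 CPM in cKO and 48.5 and 60.6 CPM in controls (-0.69). Cadps, which primes dense-core vesicles for release, was 9.91 and 7.38 CPM in cKO and 48.9 and 60.0 CPM in controls (-2.54). Scg3, which binds chromogranin A to the vesicle membrane, was 27.9 and 26.7 CPM in cKO and 89.4 and 110 CPM in controls (-1.75, adjusted p = 9.43e-05). Of 7 tested transcription factors from a list for neuroendocrine cells, 6 fell and 1 rose (median -1.06). The 1 that rose was Rest, a repressor of neuronal genes. It was 23.7 and 25.3 CPM in cKO and 12.4 and 8.65 CPM in controls (1.34, SE 0.17, adjusted p = 0.00106). Its part in the other changes was not tested. Summed otic markers, all 12 of them detected, were 334 and 347 CPM of the class in cKO and 135 and 75 CPM in controls, and their part in these values was not tested.

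In epibranchial neurons 3 of 8 processing genes and 6 of 12 granule genes fell and none rose, with medians of -0.47 and -0.59 beside -0.0089 over all genes, of which 11.7% rose and 12.4% fell. Of 12 general neuron genes, 8 fell there (median -0.61). The late cluster 12 alone gave other counts, with 12.9% of all genes past the threshold. There 1 of 8 processing genes rose and 2 fell (median -0.083), 2 of 10 granule genes fell (median -0.077), and 4 of 12 general neuron genes rose and 5 fell (median -0.13). In cluster 12, 2 of 5 other peptide genes tested rose and none fell (median 0.60). In the whole epibranchial class, 4 of 8 other peptide genes tested rose and 1 fell (median 0.37). Cartpt, the precursor of CART peptides, was 131 and 108 CPM in cKO and 79.4 and 65.6 CPM in controls (0.82, SE 0.13, adjusted p = 0.00656). Sst, somatostatin, was 1173 and 1478 CPM in cKO and 1081 and 915 CPM in controls (0.52, adjusted p = 0.0198), and in cluster 12 it was 3378 and 3118 CPM in cKO and 1524 and 1385 CPM in controls (1.27, adjusted p = 7.48e-06). Nmu, neuromedin U, was 11.7 and 10.7 CPM in cKO and 5.37 and 5.54 CPM in controls (1.13, adjusted p = 0.00706). Otic markers summed to 195 and 171 CPM in cKO epibranchial neurons and to 85 and 68 CPM in controls, and their part was not tested.

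In neural tube neurons no granule gene of 12 passed (median 0.21), nor any of 6 other peptide genes, and 1 of 6 processing genes did. That gene was Scg5, at 313 and 366 CPM in cKO and 212 and 229 CPM in controls (0.67, SE 0.10, adjusted p = 0.0323). In cluster 21, where Scg2 changed, Scg5 was 414 and 408 CPM in cKO and 290 and 297 CPM in controls (0.54, adjusted p = 0.0048), and Sst was 63.2 and 78.2 CPM in cKO and 40.4 and 22.5 CPM in controls (1.25, adjusted p = 0.0036). The lists moved both ways there, where 5.34% of all genes passed. Of 5 processing genes 2 rose and 1 fell, and of 4 other peptide genes 1 rose. None of 11 granule genes passed, and of 12 general neuron genes 4 rose and 3 fell. Epibranchial markers summed to 244 and 92 CPM in cKO and to 309 and 274 CPM in control neural tube neurons. Of the 14 receptor genes listed for the members, 1 was tested in cochleovestibular neurons. Besides Npr2, Adcyap1r1 had 14.9 and 62.7 CPM in cKO and 18.9 and 23.1 CPM in control neural tube progenitors. Npr1 had 56.5 and 57.5 CPM in cKO and 59.1 and 60.0 CPM in control endothelium. Galr1, a galanin receptor gene, was highest in surface ectoderm, at 1.61 and 1.94 CPM in cKO and 1.60 and 0 CPM in controls, and Sctr, the secretin receptor gene, did not exceed 0.852 CPM in epibranchial neurons.

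The closest patterns across the 28 clusters set the members apart once more. On log2(CPM + 1), which shares libraries and depth among its points, Gal was most like Neurog1 (r = 0.80), Fam110a and Neurod4, and Sct most like Ube2l6 (r = 0.92), Cerkl and Mreg. Chga was most like Gdap1 (r = 0.98), Srrm3 and St18, and Chgb most like Mir124a-1hg (r = 0.97), Celf6 and Scrt1. Scg2 was most like Fam155a (r = 0.96), Resp18 and Nwd2, Adcyap1 most like Cntn2 (r = 0.95), Gpr61 and Tmem163, and Nppc most like Sox1ot (r = 0.97), Nkx2-9 and Gsx1. Among the members Chga and Chgb were the closest pair (r = 0.95), followed by Scg2 and Chgb (r = 0.84), and Gal with Sct reached 0.72.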

How the data were processed

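Per the labels' protocols, sorted cells were captured with the 10x Chromium Next GEM 3′ v3.1 kit. The authors deposited raw counts of UMIs for 32285 genes in called cell barcodes. Cell Ranger appears as 6.0.1 per the file headers but as 3.1.0 per the submitters' processing notes, which also list FastQC 0.11.4, Seurat 4.1.0 and mm10. GENCODE vM21 positions matched 99.6% of gene IDs.

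Cells needed at least 1000 genes and at most 10% mitochondrial UMIs. Scrublet's automatic threshold (scanpy 1.11.5, Python 3.11.15) called between 0 and 3 doublets a library, so the highest-scoring share was removed (0.8% per 1000 barcodes). Clustering used 2000 variable genes without the 8 members, 30 components, 20 neighbours and leidenalg 0.10.2 at resolution 1. A cluster could take a class when at least 3 markers and 40% of its list reached 10 CPM and 2 times the median cluster. The class with the highest share won. The cochleovestibular name was set aside where an epibranchial, motor neuron, neural tube neuron or progenitor list reached 50%. Cluster 17 met 11 of 12 cochleovestibular and 7 of 8 neural tube neuron markers, and took its name by that precedence. Clusters whose 10 leading genes held more markers of another class stayed unnamed. So did those with a median depth under 33.3% of all cells and no marker of their own among these genes. The clusters were already known when the rule for naming them was set.

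UMIs were summed per library over each class or cluster with at least 20 cells in every library and tested with edgeR 4.0.16 in R 4.3.3 (filterByExpr, TMM, quasi-likelihood, prior count 1, no block). P-values are two-sided and Benjamini-Hochberg adjusted over all genes tested, with a threshold of 0.05. SE is the log2 change divided by the root of F. The interaction fit had the library as a block. Scripts were tested on simulated data. Alternatives were DESeq2 1.42.0, RLE scaling, no count filter, each library left out, a replicate block, no doublet removal, a stricter cell filter, other resolutions, members among the variable genes and single clusters. Intervals are exact binomial (Clopper-Pearson).

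The members, gene lists and marker lists were chosen with earlier results of these data known. The text names all 8 members, up to 4 passing genes of a list by size in each direction or those of highest CPM, and the 3 genes most like a member. Cells of unlike clusters were summed, so a class value moves with the makeup of its clusters as well as with RNA per cell.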

Additional observations from a re-analysis of the deposited data

Results flagged for a closer look

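The genotype change of 3 genes differed between the cochleovestibular and epibranchial classes by the interaction test. The difference was 1.58 on the log2 scale for Gal, with changes of 4.03 in cochleovestibular and 2.38 in epibranchial neurons. It was -0.91 for Chga, with changes of -0.89 and -0.0061, and -1.50 for Chgb, with changes of -1.28 and 0.21, in the same order of classes. These are class values, which sum over an unlike mix of clusters in the genotypes. In cluster 5 alone the changes were 4.02 for Gal, -0.10 for Chga and -0.87 for Chgb. In epibranchial clusters 7 and 12 they were 1.74 and 0.37 for Gal, -0.24 and 0.41 for Chga, and 0.10 and -0.43 for Chgb. The Gal difference missed the threshold without control 1 (adjusted p = 0.0517), without control 2 (0.0755) and with the replicate block (0.0525), in a range from 1.28e-04. The Chga difference missed it without cKO 2 (0.0832, in a range from 9.07e-05), and that of Chgb passed under each alternative run.

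Signals of the same genes were also read in clusters that took no class name and entered no comparison. In cluster 6, whose leading genes include Pax1 and Nkx2-6, Gal averaged 10.6 CPM in cKO libraries (12.4 and 8.81 CPM), above the 4.93 and 5.99 CPM of controls. In cluster 26, whose cells were shallow and which held 89 and 50 cells in cKO and 36 and 15 in controls, Gal averaged 64.3 CPM in cKO (82.2 and 46.5 CPM), with no UMI in either control. Median depths of these control cells were 3633 and 3643 UMIs, so a lack of Gal UMIs in so few cells is a weak bound. Sct averaged 448 CPM in cluster 26 of cKO (531 and 365 CPM), against 175 and 10.6 CPM in controls. These differences were not tested.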

How the results depend on the processing

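The cochleovestibular count of 4877 genes past the threshold ran between 2135 and 5464 with 1 library left out. The epibranchial count of 3089 was 1662 with DESeq2 and ran between 437 (without control 1) and 4173 with 1 library left out. In neural tube neurons, 114 genes became 933 with no filter, 212 with no doublet removal, 493 at resolution 2 and 168 to 731 with 1 library left out. In neural tube progenitors, 80 became 388 with no filter, 126 with no doublet removal, 162 with the stricter cell filter, 433 at resolution 2 and 30 to 371 with 1 library left out. The interaction count of 731 was 1302 with no filter and ran between 148 and 739. The otic count of 6203 stayed between 4159 and 7086.

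The libraries share replicate numbers 1 and 2, and same-numbered libraries did not deviate together (correlations between -0.0203 and 0.0310). With the replicate block the counts were 4663 in cochleovestibular, 3605 in epibranchial and 82 in neural tube neurons, 6550 in otic epithelium, 210 in progenitors and 550 for the interaction. Gal passed under the block in neural tube neurons (2.13, adjusted p = 0.0164). In otic epithelium it also passed under the block (adjusted p = 0.0469), but there Gal was lower in cKO. It was 2.36 and 3.04 CPM in cKO and 3.36 and 4.69 CPM in controls (log2 change -0.38, edgeR adjusted p = 0.141 without the block).

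Of the members' alternative values, 342 kept direction and side of the threshold, 18 lost the call, 14 gained one and 23 turned sign. Those that turned sign had missed the threshold in the first place, except Adcyap1 in epibranchial and Scg2 in neural tube neurons, which turned in 1 cluster. Epibranchial Chga (-0.0061) was 0.00318 with RLE, 0.00267 with DESeq2, 0.00235 with no filter, 0.41 in cluster 12 and between -0.060 and 0.059 with 1 library left out. In cluster 12 Chgb was -0.43, Scg2 0.35 and Adcyap1 0.049, and epibranchial Chgb ran between -0.035 and 0.45 with 1 library left out. Neural tube Chga (0.0065) was -0.0040 with no filter, -1.57e-04 with the replicate block, -0.048 with no doublet removal, -0.079 at resolution 2, -3.61e-04 with members among the variable genes, -0.29 in cluster 21 and between -0.052 and 0.052 with 1 library left out. Neural tube Chgb was -0.14 in cluster 21 and -0.0014 to 0.23 with 1 library left out, Sct was 1.01 in cluster 21 and -0.64 to 0.19 with 1 library left out, and Scg2 was -0.062 in cluster 17. The cause was not tested. Pyy, Nppc and Scg2 rested on few UMIs in several classes, which limits what could be detected.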
